A study of Mus musculus with 2 samples.

Results

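The 10 genes described here make and load the peptide-presenting MHC class I molecules of the mouse: the heavy chain genes H2-K1 and H2-D1, their partner B2m, the peptide transporter genes Tap1 and Tap2, the loading factor gene Tapbp, the immunoproteasome subunit genes Psmb8, Psmb9 and Psmb10, and the class I transactivator gene Nlrc5. They were chosen by name, and a probe belonged to a gene when the gene name in the array files equalled one of these symbols. This found 17 of the 56605 probes outside the controls, with 2 probes for 7 of the genes and 1 probe for 3, and the 10 genes are among 37074 names on the array. The study hybridised RNA from mouse blood to 2 one-colour Agilent arrays, 1 of heat-treated and 1 of control material, and asked which genes respond. Heating was 1 h at 37 °C in a water bath and then 1 h at 38.5 °C; the labels do not say whether animals or drawn blood were heated, and give no temperature or time for the control. The labels mention 3 replicates per line, but each group here is 1 array. Both samples shared lysis of red cells, removal of globin transcripts and Cy3 labelling, per the labels' protocols. Strain, genotype, sex and age were not given in the sources used here. With 1 array in each group no difference has a replicate check, none has a p-value, and the number of arrays limits the precision; heat and any other difference in handling cannot be told apart.

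Nucleated cells show fragments of their own proteins to CD8 T cells on class I molecules. The proteasome cuts the proteins, and after interferon its standard catalytic subunits can be replaced by the immunoproteasome subunits encoded by Psmb8, Psmb9 and Psmb10. TAP, a dimer of the Tap1 and Tap2 products, moves the peptides into the endoplasmic reticulum, where tapasin, the product of Tapbp, helps to load them onto a heavy chain paired with beta-2 microglobulin, the product of B2m. NLRC5 joins a complex of RFX, CREB and NF-Y factors on the promoters of class I genes, and white blood cells express the pathway.

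The promoters are shown because they hold the letters through which NLRC5's complex and the interferon and NF-kB pathways are known to act on class I genes. RefSeq windows of the GRCm38.p6 build, from 250 bases before to 50 bases after the gene start, matched 8 of the 10 genes in 9 windows, and Tap2 and Nlrc5 had no entry. The stretches below lie upstream of the gene start and read 5′ to 3′ on the gene's strand. Capitals mark TGACG (a part of the X box of this promoter type), CCAAT on either strand (the Y box, read here as ATTGG), GG and TCCC with 4 bases of any kind between them (a form of the NF-kB site), and GAA or GAAA, 2 bases of any kind and GAAA (pairs of short interferon regulatory factor repeats), each searched on both strands.
H2-K1 at chr17:34000359-34000458, minus strand: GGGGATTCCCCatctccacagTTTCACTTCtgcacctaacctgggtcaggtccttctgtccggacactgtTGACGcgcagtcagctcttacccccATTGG
H2-D1 at chr17:35262923-35263022, plus strand: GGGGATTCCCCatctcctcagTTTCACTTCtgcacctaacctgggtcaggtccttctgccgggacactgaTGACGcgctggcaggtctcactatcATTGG
B2m at chr2:122147548-122147638, plus strand: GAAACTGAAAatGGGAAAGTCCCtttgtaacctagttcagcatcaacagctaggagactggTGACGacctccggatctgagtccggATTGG
Tap1 at chr17:34187334-34187474, plus strand: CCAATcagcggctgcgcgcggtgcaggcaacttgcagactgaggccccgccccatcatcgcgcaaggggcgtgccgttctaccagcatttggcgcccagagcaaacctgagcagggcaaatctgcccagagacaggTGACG

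H2-K1, H2-D1 and B2m shared one arrangement, TGACG followed after exactly 20 bases by ATTGG. It was found in 31 of 32851 RefSeq promoter windows of the same length, or 0.0944%, which belong to 27 genes, among them H2-M3, another class I heavy chain gene. Single motifs were common in all windows: 20.8% held TGACG, 37.4% CCAAT, 20.7% the NF-kB form, 7.52% the repeat pair beginning with GAA and 3.44% the pair beginning with GAAA. Among the genes described here, TGACG was found in 5 (H2-K1, H2-D1, B2m, Tap1 and Psmb9), CCAAT in 6, the NF-kB form in 3, the pair beginning with GAA in 2 (H2-K1 and H2-D1) and the pair beginning with GAAA in B2m. Some matches overlap, since the NF-kB form reads on both strands 1 base apart. Tap1 and Psmb9 start back to back, 225 bases apart, so their windows share 275 bases and the same TGACG and CCAAT serve both counts. TATAAA was found in 4 of these genes and in 13.6% of all windows. The letters and the spacing were chosen with these promoters in view, a match is not a measured site, and the arrays hold no reading of binding.

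**Figure D1:**
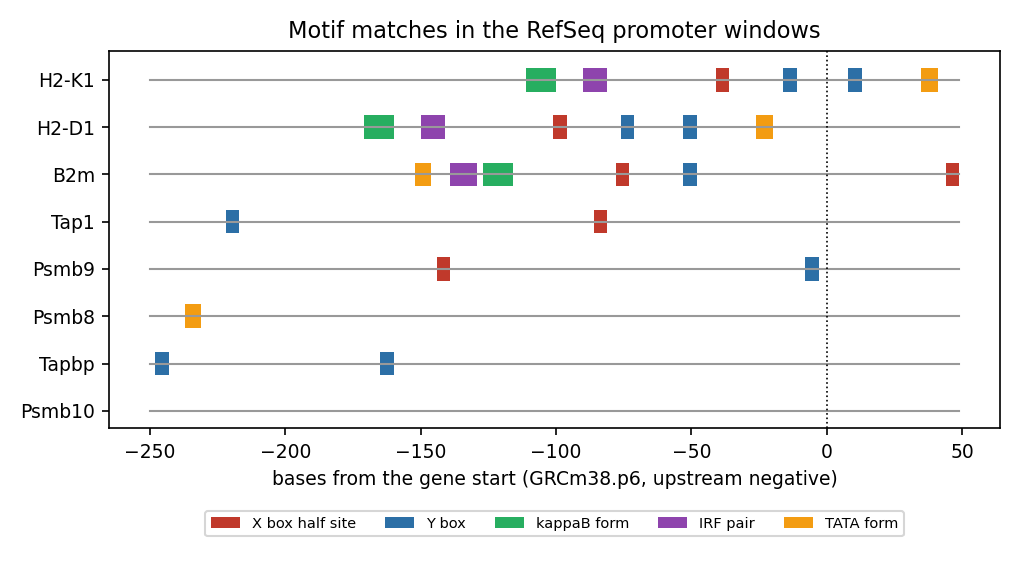
Motif matches on either strand in the RefSeq promoter windows of 8 genes, with the position in bases from the gene start on the horizontal axis and one line per gene. H2-K1 (the first of its 2 windows), H2-D1 and B2m each have an NF-kB form and an interferon factor pair upstream of TGACG and, 20 bases on, the Y box; no match was found for Psmb10.

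All 10 genes were detected on both arrays, and none was 2-fold apart. Each gene had at least 1 probe that the scanner software flagged on both arrays as well above background. By the same rule 18562 of the 37074 names were measured on both arrays. Of all 56605 probes, 53.8% passed the flag after heating and 52.0% in the control. Heat minus control, on the log2 scale after each array was set to its 75th percentile, ran from -0.20 for Tap2 to 0.28 for Nlrc5. The median of the 10 was 0.01, the same as the median of 0.01 over all 18562 genes measured on both arrays. Of the 10, 6 lay above 0 and 4 below, where 52.2% of all genes lay above 0 and 47.8% below. Without scaling between arrays the split was 3 and 7, where 41.4% of all genes lay above 0. The medians were then -0.030 for the 10 and -0.031 for all genes. A 2-fold difference was seen in 0.663% of all genes (0.210% higher, 0.453% lower), against 0 of the 10 genes.

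The size of the technical error sets how these values can be read. Among 283 probes printed at 10 spots and detected, the difference between arrays varied between spots of the same probe with an SD of 0.08, and among the probes of one gene, over 6553 genes with several usable probes, with an SD of 0.19. The scanner software put the error of a bright probe at 10% of its signal on each array, which gives 0.20 for a log2 difference. More than 2 spot SDs (0.17) separated the arrays for 1 of the 10 genes upward (Nlrc5) and 1 downward (Tap2), where 16.4% of all genes were so far higher and 15.1% so far lower. Shares of 1 in 10 are near this background.

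**Figure D2:**
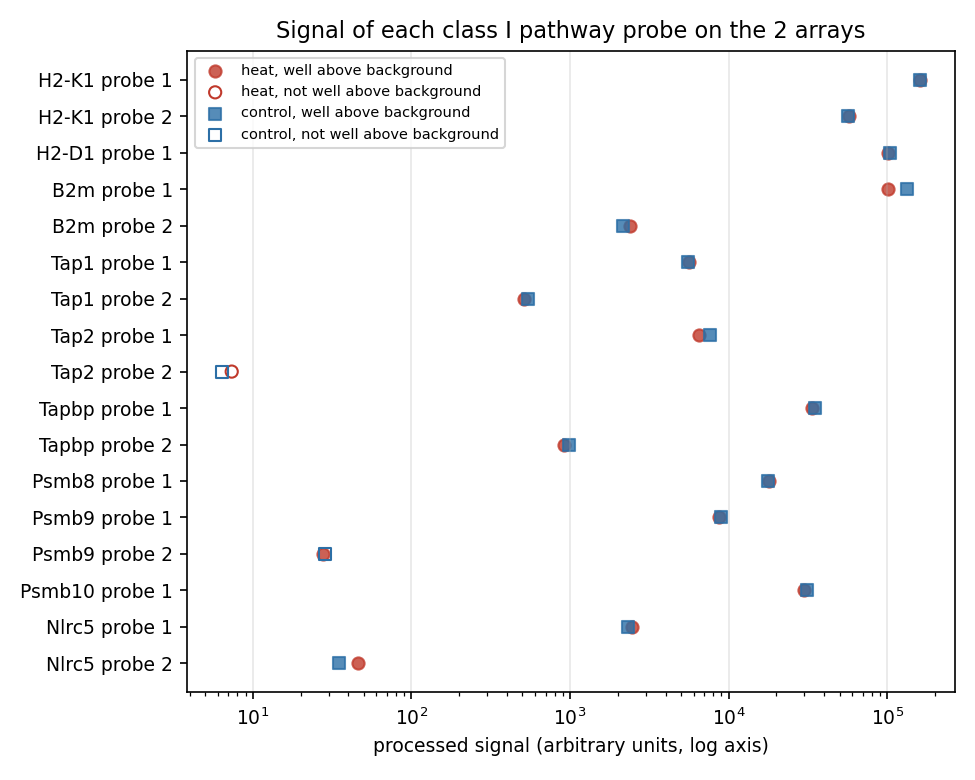
Processed signal of each of the 17 probes (arbitrary units, log axis) after heating (red circles) and in the control (blue squares); open symbols were not well above background. The symbols overlap for most probes, B2m probe 1 and Tap2 probe 1 sit lower in the heated sample, Nlrc5 probe 2 sits higher, and the height of different probes cannot be compared because each binds with its own strength.

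The heavy chains, which hold the peptide, had nearly equal signals in both samples. H2-K1 probe 1 (chr17:34133055-34133114, mm9) read 160305 after heating and 160230 in the control. H2-K1 probe 2 (chr17:34133984-34134043) read 57129 and 56091. The scaled differences were 0.04 and 0.07, both within the scanner error of 0.20, and the gene's mean was 0.05, a change of 3.69%. H2-D1 had 1 probe by name (chr17:35403886-35403945), with 101591 in the heated and 103339 in the control sample. Its difference was 0.01 after scaling and -0.02 without, so no direction can be read. No spot was saturated, and none of these probes had a saturated pixel on either array (0 pixels).

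H2-K1 probe 2 is shown with its look-alikes because class I genes are near copies of each other and signal can cross between them. Capitals mark the run of letters that H2-K1 probe 2 shares with the other probe.
H2-K1 probe 2: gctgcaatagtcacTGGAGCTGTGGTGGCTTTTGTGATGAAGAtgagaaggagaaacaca
H2-L, 1 of 2 probes: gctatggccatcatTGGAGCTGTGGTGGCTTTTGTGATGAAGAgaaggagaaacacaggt
H2-T23, 1 of 2 probes: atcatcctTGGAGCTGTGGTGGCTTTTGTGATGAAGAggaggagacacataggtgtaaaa
Each pair shared a run of 29 of 60 bases, and 10 probes in all shared a run of at least 14 bases with H2-K1 probe 2. The H2-L probe shown (chr17:35403191-35403250) read 64247 and 70363 in the heated and the control sample, a difference of -0.09. It lies close to the H2-D1 probe (chr17:35403886-35403945), and whether it reads H2-D1 transcripts was not tested. The H2-T23 probe shown (chr17:36167338-36167574) read 52614 and 64917, a difference of -0.26, while H2-K1 probe 2 differed by 0.07. Of these 3 values, that of H2-T23 alone was beyond the scanner error of 0.20. The other probe of each gene had the opposite sign, at 0.08 for H2-L and 0.31 for H2-T23, and the gene means were -0.0042 and 0.02. The H2-Q8 probe, which shares 14 bases, was at 0.07. H2-K1 probe 1 and the H2-D1 probe shared no run over 14 bases with any other probe on the array. How much of each signal comes from a near copy, or from the alleles of an unstated strain, was not tested.

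B2m, the invariant partner of every classical heavy chain, gave probes that disagreed. B2m probe 1, designed on the reference transcript NM_009735 (chr2:121978401-121978460), read 100717 in the heated sample against 133216 in the control sample. The difference was -0.36, a change of -22.3% in scaled signal, which is larger than the scanner error of 0.20. B2m probe 2, designed on the clone record AK086184 (chr2:121974599-121974658), read 2371 against 2148, a difference of 0.18. The gap between the probes was 0.55. Among 1410 genes with 2 usable probes, both brighter than the array's 75th percentile, 1.35% had a gap at least as wide, and the median gap was 0.08. Among all 4086 genes with 2 usable probes, dim ones included, these values were 4.53% and 0.12. The gene's mean of -0.09 stands for neither probe, and with the brighter probe alone B2m was at -0.36.

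The B2m probe 1 value was also set against its surroundings. The 216 detected probes within 10 rows and columns of its spot had a median difference of 0.01. The 395 detected probes within 0.5 of its log2 level had a median of 0.01, and 3.04% of them were as low or lower. Under 9 other scalings, background corrections and value sources, probe 1 stayed between -0.40 and -0.35, and probe 2 between 0.09 and 0.19. These settings reprocess the same scans, and some only shift all probes alike, so the narrow range is no replicate check of the difference. The ratio of H2-K1 to B2m signal, which needs no scaling between arrays, moved by 0.14 over all usable probes and by 0.40 over the brightest probe of each gene. For H2-D1 and B2m these values were 0.11 and 0.38. Each ratio carries the error of both genes, and the error of the ratios was not estimated.

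**Figure D3:**
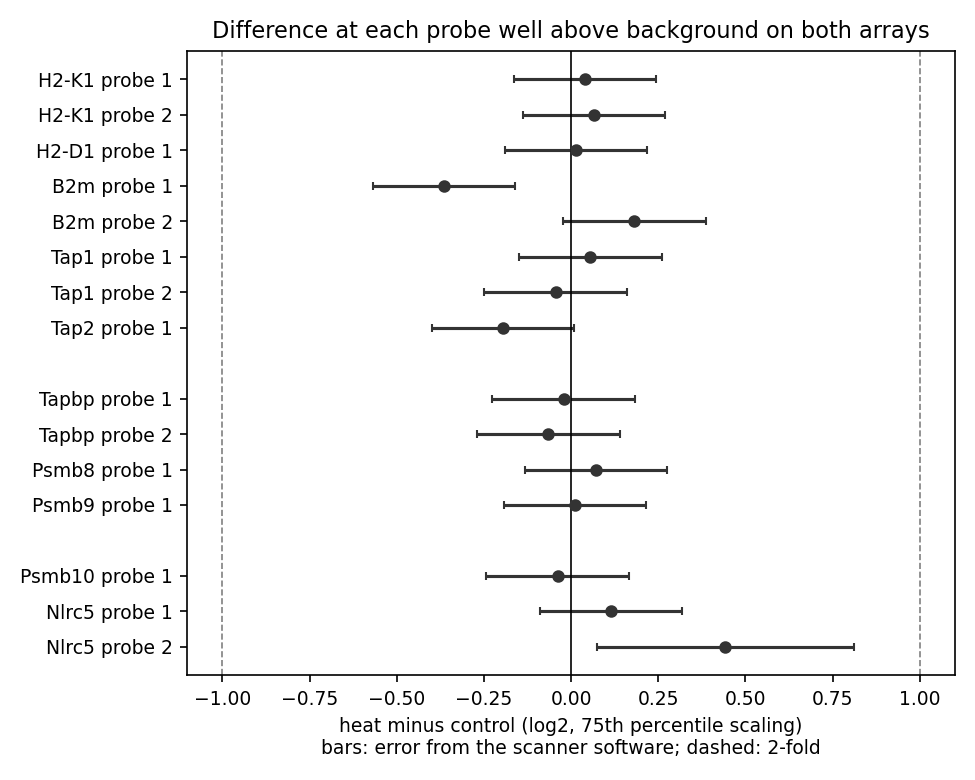
Heat minus control (log2) at each of the 15 probes well above background on both arrays, with bars for the error of the difference from the scanner software and dashed lines at 2-fold. B2m probe 1 at -0.36 and Nlrc5 probe 2 at 0.44 are the probes whose bars do not reach 0, and no bar reaches 2-fold.

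The peptide transporter genes lay within or at the edge of the scanner error. Tap1 probe 1 (chr17:34334022-34334081) read 5626 in the heated and 5560 in the control sample, and Tap1 probe 2 (chr17:34330854-34330913) read 510 and 540. Their differences of 0.06 and -0.04 have opposite signs and lie within the scanner error, and the mean for Tap1 was 0.01. Tap2 probe 1 (chr17:34353116-34353175) read 6519 in the heated sample against 7670 in the control sample. Its difference of -0.20, a change of -12.7%, is close to the scanner error of 0.20. With normexp and quantile normalization it was -0.11. Tap2 probe 2 (chr17:34341478-34341537) did not reach the background flag in either sample, with signals of 7.36 and 6.42, and gives no difference. Over the usable probes the ratio of Tap1 to Tap2 differed between the samples by 0.20, and the error of this ratio was not estimated. Of all genes, 25.9% were at least as far from 0 as Tap2.

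Tapbp, whose product tapasin bridges TAP and the heavy chain, was nearly level. Its probe 1 (chr17:34066022-34066081) read 33401 in the heated and 34825 in the control sample. Its probe 2 (chr17:34063096-34063155) read 916 and 985. The differences were -0.02 and -0.07, both within the error, and the mean of -0.04 kept its sign under 13 alternatives, from -0.08 to -0.01.

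The immunoproteasome subunit genes were close to 0 as well. Psmb8, which encodes the chymotrypsin-like subunit LMP7, read 17979 in the heated and 17563 in the control sample (chr17:34337771-34337830), a difference of 0.07. Psmb9, which encodes LMP2, read 8718 and 8884 at its probe 1 (chr17:34319174-34319233), a difference of 0.01. Psmb9 probe 2 (chr17:34322762-34322821) read 27.8 and 28.5 and passed the background flag after heating only, so its difference was not used. Psmb10, which encodes MECL-1, read 29613 and 31243 (chr8:108459677-108459736), a difference of -0.04. No subunit gene was beyond the scanner error.

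Each immunoproteasome subunit takes the place of one standard subunit, so the pairs were compared as ratios, in which the scaling between arrays cancels. Psmb8 over Psmb5 was higher in the heated sample by 0.12, from 0.07 for Psmb8 and -0.05 for Psmb5. Psmb9 over Psmb6 differed by -0.06, from 0.01 and 0.07. Psmb10 over Psmb7 differed by -0.10, from -0.04 and 0.06. The 3 ratios had no common direction, and all were under the SD of 0.19 among probes of one gene.

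Nlrc5, the NOD-like receptor that acts as a transactivator of class I genes, had the difference farthest from 0 of the 10 when probes were averaged; with the brightest probe per gene it was at 0.11, nearer to 0 than B2m at -0.36 and Tap2 at -0.20. Its probe 1 (chr8:97051105-97051164) read 2458 in the heated and 2333 in the control sample, and its probe 2 (chr8:97030478-97030624, which spans 147 bases of genome for a probe of 60 bases) read 46.3 and 35.0. The differences were 0.11 at the bright probe and 0.44 at the dim one, with scanner errors of 0.20 and 0.37. Both probes were higher in the heated sample, but the dim probe lies near the dimmest signals that passed the background flag, which were 24.9 after heating and 31.0 in the control. The mean of 0.28 was at or above 92.5% of all genes, and it fell to 0.11 with the brighter probe alone and 0.13 with normexp and quantile normalization.

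**Figure D4:**
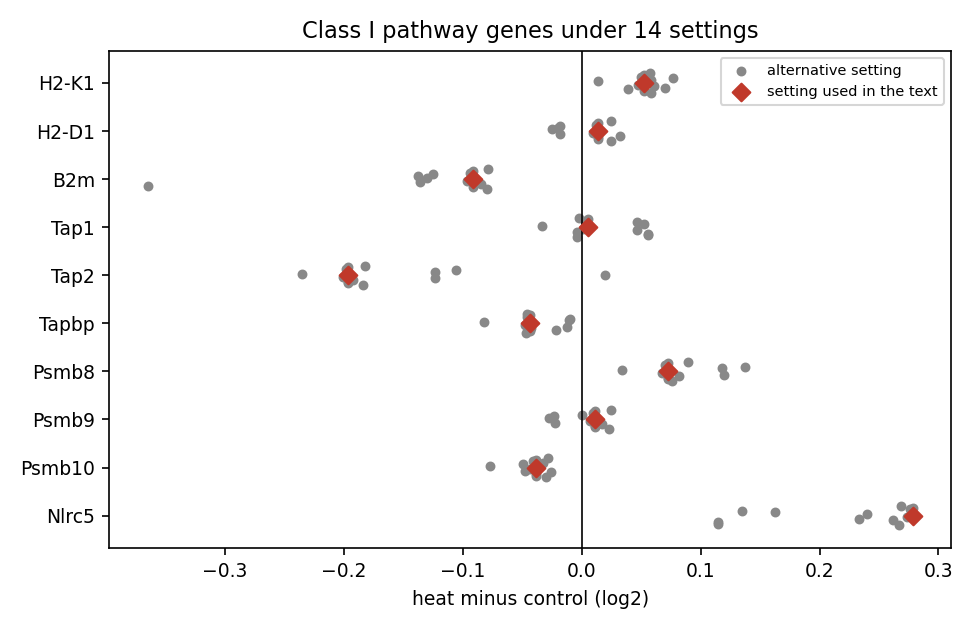
Heat minus control (log2) for each of the 10 genes under the setting used in the text (red diamonds) and 13 alternatives (grey points). H2-K1, B2m, Tapbp, Psmb8, Psmb10 and Nlrc5 keep their sign in every setting shown; H2-D1, Tap1, Psmb9 and Tap2 cross 0 in at least 1, and Tap2 does so only where its undetected probe is averaged in.

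Of the 10 genes, 7 lie on chromosome 17, 2 on chromosome 8 (Psmb10 and Nlrc5) and B2m on chromosome 2. The probes of Psmb9, Tap1, Psmb8 and Tap2 fall within 34002 bases (chr17:34319174-34353175, mm9), and no other gene was measured there. Across the 1341 kb from Tapbp to H2-D1, 81 other genes were measured, with a median difference of 0.05, 55 above 0 and 26 below. Of all genes, 52.2% lay above 0, and their median was 0.01. Whether the region differs as a whole was not tested, and values of near copies may not be independent. The 81 genes share a genome region, and several are class I or class II genes themselves.

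Other heavy chains of the class I family had small values. Of 28 listed genes 26 were on the array by name, 21 were measured on both arrays, 15 of these lay above 0 and 6 below, and the median was 0.06, where 52.2% of all genes lay above 0 and their median was 0.01. More than 2 spot SDs separated 3 upward and 1 downward, shares no higher than the 16.4% and 15.1% of all genes, and none was 2-fold apart. H2-Q4 read 39474 in the heated and 33245 in the control sample, a difference of 0.29. H2-Q2 read 74747 and 64752, a difference of 0.25. Both have 1 probe, and H2-Q genes are near copies, so their values may not be independent. Cd1d2, a lipid-presenting relative, differed by 0.22, and Mr1, which presents vitamin metabolites, had a mean of -0.19 from probes at -0.82 and 0.44. Without scaling between arrays, 10 of the 21 lay below 0, where 41.4% of all genes lay above 0.

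Genes for loading and trimming peptides in the endoplasmic reticulum had a median of -0.07. All 10 were measured, 2 above 0 and 8 below, where 47.8% of all genes lay below 0; 0 were more than 2 spot SDs higher and 1 lower, against 16.4% and 15.1% of all genes. Canx, the membrane-bound lectin chaperone calnexin of newly made heavy chains, read 24812 in the heated and 28810 in the control sample and was lower at both probes, with a mean of -0.18. Sec61a1, the translocon channel, was at -0.15, but its 3 probes ran from -0.67 to 0.10. Calr, the soluble lectin chaperone calreticulin of the loading complex, was at -0.10, and Pdia3, its oxidoreductase partner ERp57, at -0.09.

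Assembly factors, activators and peptidases that act with the proteasome were also mixed. By name, 12 of 14 listed genes were on the array and measured, 4 above 0 and 8 below, with a median of -0.06. Across all genes 52.2% lay above 0 and 47.8% below, with a median of 0.01. In this list 1 gene was more than 2 spot SDs higher and 1 lower, both shares below those of all genes. Psmg1, an assembly chaperone, was at -0.20 and lower at both probes, and Npepps, a cytosolic aminopeptidase, at 0.18 and higher at all 4. Tpp2, which trims long peptides, was at -0.15 and Psmg3, another assembly chaperone, at 0.13. Among the standard catalytic subunits Psmb6 was at 0.07, Psmb7 at 0.06 and Psmb5 at -0.05.

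Regulators of class I genes and interferon signalling had a median of -0.0027. All 23 genes were measured, 11 above 0 and 12 below, where 52.2% of all genes lay above 0 and their median was 0.01. More than 2 spot SDs separated 3 upward and 0 downward, against 16.4% and 15.1% of all genes. The count of higher genes is thus no more than the background. Ciita, the class II transactivator and a relative of NLRC5, was at 0.64, with 3 usable probes between 0.46 and 0.79 and mean signals of 209 and 137. Irf8, a transcription factor of monocytes and dendritic cells, was at 0.31, with probes at 0.25 and 0.37. Stat2, of type I interferon signalling, was at 0.29, with probes at 0.13 and 0.45. Irf2, which binds the same sites as Irf1, was at 0.12. Irf1, the interferon-induced activator of class I genes, was at -0.06, and Rfx5, a subunit of the RFX complex, at -0.08. Among TAP relatives and class II region genes, 5 of 6 were measured, with a median of -0.04: H2-DMa at -0.19, Brd2 at 0.17, H2-DMb1 at -0.14 and Abcb9, a lysosomal peptide transporter, at 0.10.

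**Figure D5:**
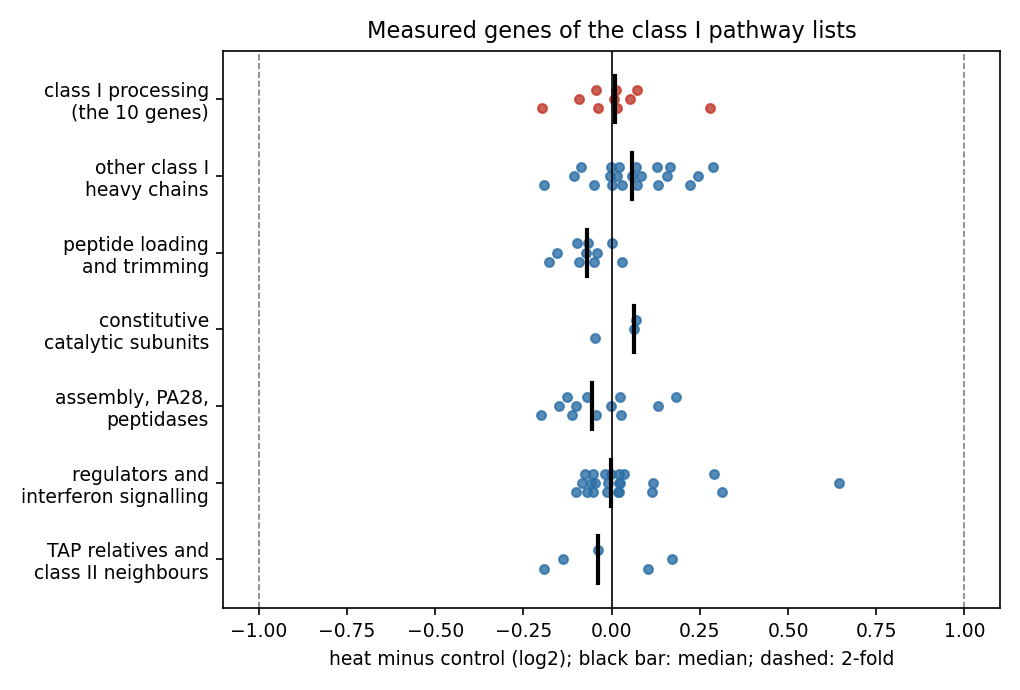
Heat minus control (log2) of every measured gene in the 7 gene lists, with a black bar at each list's median and dashed lines at 2-fold. The medians lie between -0.07 and 0.06, and Ciita at 0.64 is the point farthest from 0.

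The cells behind these values were checked by marker lists. All 10 monocyte and macrophage markers were detected in both samples, with summed signals of 603665 after heating and 611045 in the control. Of 8 B cell markers 2 were detected, with Cd79a and Ms4a1 among those not well above background; of 10 T cell markers 8, without Cd3g and Cd8a; and of 8 NK cell markers 2. Of 8 neutrophil markers 5 were detected, without Ly6g, Cxcr2 and Retnlg, of 7 erythroid markers 1, and of 7 platelet markers 2. The summed signals of T cell markers were 28242 and 28351, of B cell markers 815 and 792, of NK cell markers 157 and 240, of neutrophil markers 63459 and 65759 and of platelet markers 12238 and 10475. Dendritic cell markers were detected for 4 of 7 genes after heating and for 3 in the control, with sums of 41562 and 48833. The sums follow the brightest marker of each list, as with the T cell marker Il7r (21059 and 22178), and single markers moved apart. Of the 8 measured T cell markers 4 were more than 2 spot SDs higher and 1 lower, with a median of 0.16. Of the 10 monocyte markers, whose median was 0.05, 2 were so much higher and 0 so much lower. Of all genes, 16.4% were so much higher and 15.1% so much lower. A few markers were named after their values were seen. Cd28 was at 0.35 and Cd247 at 0.32, each from 1 usable probe. Cd8b1 was at -0.57 (signals of 42.2 and 64.6) and the monocyte marker Ccr2 at 0.73 (113 and 69.9). Prf1 of the NK cell list was 2-fold lower, at -1.68 (signals of 46.0 and 151.6). Defining genes of several blood cell types were therefore not seen, and the monocyte and macrophage list was the only marker list detected in full. Whether the RNA stands for mixed white blood cells was not tested, nor was the part of cell makeup in the class I values. In such RNA, fewer cells of a type and less RNA per cell cannot be told apart.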

How the data were processed

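Per the file headers, the scans went through Feature Extraction, Agilent's scanner software, version 10.7.1.1, and probe coordinates are mm9; the submitters' processing notes name version 9.1. The deposited scanner files hold linear intensity values and, per the file headers, other spot flags for background, saturation and outliers. The authors' deposited value table holds log2 values, which matched quantile-normalized log2 processed signals (r of 1.000 on each array, median 5.27).

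Outlier spots (168 heat, 149 control) were left out, spots of a probe averaged after log2, and each array's 75th percentile (604 and 620.5 before log2) subtracted. A gene's value averages those of its probes flagged above background in both samples (28755 probes in all); a probe passed when over 0.5 of its spots did. The scaling and the averaging of probes into genes were tested on simulated data. The planted differences were all over 2-fold, so that test does not bear on the smaller differences of the 10 genes. All 17 probes kept their gene when named through transcript records. Named genes are the 10, and up to 4 of each other list with the largest differences, plus Irf1, Rfx5 and Ciita; a few items under this rule are not reported here. The genes and lists were chosen with earlier results of these data known. R 4.3.3, limma 3.58.1, Python 3.11.15 and pandas 2.3.3 were used.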

Additional observations from a re-analysis of the deposited data

How the results depend on the processing

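Over 32 results and 13 alternatives, with a 4-fold threshold beside them, 388 of 417 values stayed within the spot SD of 0.08 or, for counts, within 1.5 times. Many of these values could hardly move, so the count is not a measure of robustness. Leaving out the scaling, or scaling to the median of detected probes, shifts all genes alike by less than that SD. Such a shift cancels in ratios: Psmb8 over Psmb5 was 0.12 with and without scaling. Naming through transcript records left the values of the 10 genes unchanged. B2m was at -0.36 with the brightest probe per gene. Nlrc5 was at 0.11 both with the brightest probe and with the brighter 50% of detected probes, 0.16 with normexp and the 75th percentile, and 0.13 with normexp and quantile normalization. Tap2 was at -0.11 with normexp and quantile normalization and 0.020 with no filter on dim probes, where its undetected probe enters. Without scaling 3 of the 10 genes lay above 0 and 7 below, and 10 of the other heavy chains lay below 0. Of all genes, 41.4% then lay above 0. With no filter on dim probes 10 heavy chains also lay below 0, but genes not well above background were counted there too. Of all genes, 35.9% lay above 0 in that setting. The standard subunits had a median of -0.025 with normexp and the 75th percentile and -0.024 with mean minus background, each with 3 below 0. With normexp and quantile normalization 2 lay below 0. In these settings, in the same order, 57.3%, 51.8% and 51.4% of all genes lay above 0. Of all genes, 123 were 2-fold apart (39 higher, 84 lower); this was 36 (12, 24) with normexp and the 75th percentile, 38 (11, 27) with normexp and quantile normalization, 17 (3, 14) with the brighter 50% of probes, 1735 (727, 1008) with no filter and 11 at 4-fold. The normexp settings used an offset of 50 added to each signal, which by construction shrinks the log2 differences of dim probes. Nlrc5 probe 2, with signals of 46.3 and 35.0, went from 0.44 to 0.13 with normexp and quantile normalization. How much of the lower normexp counts comes from this offset was not tested. Apart from the offset and the fewer or more probes that a filter leaves, the cause was not tested. None of the 10 genes was 2-fold apart in any setting. Signal over background limits Tap2 probe 2, Psmb9 probe 2 and Nlrc5 probe 2. No paired analysis was possible because each group held 1 array and no result comes from a test.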
